A study of Mus musculus with 2 samples.

Results

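Centromere-proximal CTCF peaks were taken as all peaks with a centre at or below 10 Mb on mouse chromosomes 1 to 19 other than chromosome 15, which left 18 chromosomes. By this rule 2058 of 51421 peaks (4.002%) of neural precursor cells (NPC) and 2223 of 54151 peaks (4.11%) of embryonic stem cells (ESC) lay at the centromere end. The NPC were derived from the E14 line (E14Tg2A, IB10 cells) and grown on gelatin with basic FGF and EGF. The ESC were the E14 line itself, kept in serum with leukemia inhibitory factor in medium conditioned by BRL cells. Each cell type gave 1 library, made with the same Millipore antibody against CTCF and sequenced on SOLiD, and each list of peaks comes from 1 library of the same parental line. No replicate spread exists, so no test was made between the lists or between parts of a chromosome, and the intervals given are 95% intervals for counting error only, with peaks treated as independent.

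CTCF is a zinc-finger protein that binds DNA at a long, directional motif and halts cohesin there, so that bound sites mark the anchors of many chromatin loops and the borders of many domains. Mouse autosomes carry the centromere at one end. Next to it lie long arrays of satellite repeats packed into heterochromatin, which the genome assembly does not spell out and to which short reads cannot be placed uniquely. The assembly stands in for this part with 3 Mb of unknown bases at the start of each autosome. No peak of either list began in those 3 Mb on any of the 19 autosomes, so densities at the centromere end were computed over the 7 Mb from 3 to 10 Mb, and those of the rest from 10 Mb to the last peak of the chromosome. No sequence of the build used, mm9, and no gene positions on it were at hand, so that the motif and the genes at these peaks were not analysed here, and the lists were taken as CTCF sites from the labelled antibody alone.

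CTCF peaks were sparser at the centromere end than along the rest of the same chromosomes in both cell types. NPC had 16.3 peaks per Mb (15.6 to 17.1) at the centromere end, against 20.8 (20.6 to 20.96) in the rest, a ratio of 0.786 (0.752 to 0.822). ESC had 17.6 peaks per Mb (16.9 to 18.4) at the centromere end, against 22.0 (21.8 to 22.2) in the rest, a ratio of 0.800 (0.767 to 0.835). The ratio was below 1 on 14 chromosomes in NPC and on 13 in ESC. The median ratio over chromosomes was lower than the pooled one, at 0.650 in both lists. The dense ends of chromosomes 11 and 19 held 27.0% of the NPC and 26.1% of the ESC peaks at the centromere end. Without them the ratio was 0.666 (0.632 to 0.701) in NPC and 0.687 (0.654 to 0.722) in ESC.

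**Figure D1:**
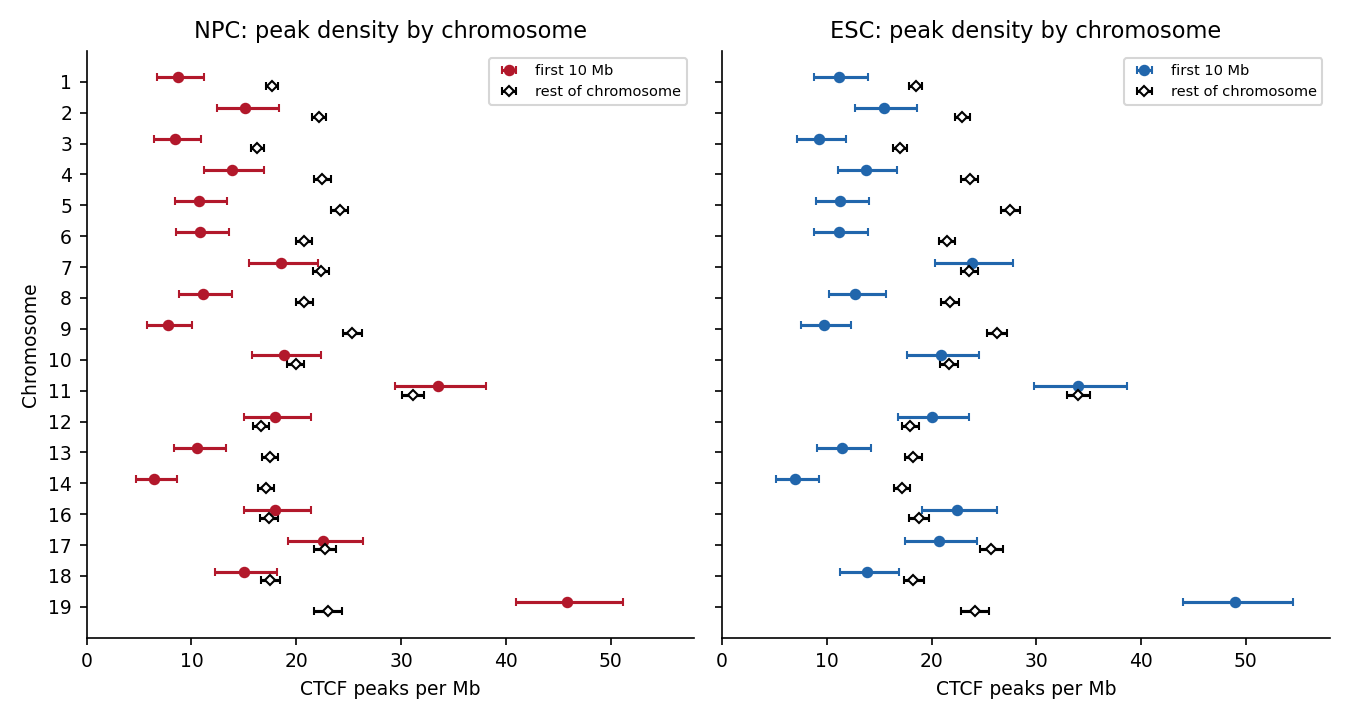
Peaks per Mb in the first 10 Mb (filled, counted from 3 Mb) and in the rest (open) of each of the 18 chromosomes, NPC left and ESC right, with exact Poisson 95% intervals. Most centromere ends lie left of their own chromosome, and chromosome 19 lies far to the right of its own, at 45.9 peaks per Mb in NPC and 49.0 in ESC.

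Chromosomes differed more from one another than the cell types did. The lowest ratio was on chromosome 9, where NPC had 7.71 peaks per Mb at the centromere end and 25.3 in the rest (ratio 0.305), and ESC had 9.71 and 26.2 (ratio 0.371). That end, counted over its 7 Mb, was also the sparsest of the 12 complete 10 Mb segments of chromosome 9 in both lists. The margin was small: the next sparsest segment had 9.6 peaks per Mb in NPC and 10 in ESC. Both values lay within the Poisson intervals of the end, 5.80 to 10.1 in NPC and 7.54 to 12.3 in ESC. The fewest peaks were on chromosome 14, with 45 in NPC and 49 in ESC. At the other extreme, chromosome 19 had 321 peaks in NPC and 343 in ESC, 1.99 times the density of its rest in NPC and 2.03 times in ESC, and its centromere end was the densest of its 6 complete segments. In NPC the Poisson interval of the centromere end lay below the density of the rest on 11 chromosomes, held it on 6 and lay above it on 1, chromosome 19. In ESC it lay below on 12, held it on 4 and lay above on 2, chromosomes 16 and 19. On chromosome 11, the second densest end in both lists, the density was 33.6 peaks per Mb at the centromere end and 31.1 in the rest in NPC, and 34 at the centromere end and 33.98 in the rest in ESC. Low density was therefore frequent at the centromere end, and it was rarely the lowest of the chromosome. It was the lowest on chromosome 9 only, in either list and by a small margin. On 12 of the 18 chromosomes the end ranked in the lower part of the segments.

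Density also changed within the first 10 Mb. From 3 to 5 Mb, NPC had 20.6 peaks per Mb (19.1 to 22.1) and ESC 23.0 (21.5 to 24.6), near the 20.8 and 22.0 of the rest. From 5 to 10 Mb the densities were 14.6 (13.9 to 15.5) in NPC and 15.5 (14.7 to 16.3) in ESC. The sparsest Mb was from 7 to 8 Mb, with 174 peaks over the 18 chromosomes in NPC (9.67 per Mb) and 210 in ESC (11.7 per Mb). The dense ends of chromosomes 11 and 19 contributed to the value next to the unsequenced opening. Without them, the density from 3 to 5 Mb was 16.3 in NPC and 18.5 in ESC, below the 20.1 and 21.3 of the rest of those 16 chromosomes. Beyond the 10 Mb limit the sparse stretch went on. From 10 to 20 Mb there were 13.7 peaks per Mb (13.2 to 14.3) in NPC and 14.5 (13.9 to 15.02) in ESC, lower than the 16.3 and 17.6 from 3 to 10 Mb. That difference rested on chromosomes 11 and 19. Without them the NPC density was 13.4 (12.7 to 14.1) inside the limit and 13.6 (13.1 to 14.2) in the 10 Mb beyond it, and the ESC density was 14.7 (13.96 to 15.4) inside and 14.4 (13.9 to 15.04) beyond. The opposite, telomere-side end stood at the other extreme, with 28.2 peaks per Mb in NPC and 29.3 in ESC over the last 10 Mb of the same chromosomes.

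**Figure D2:**
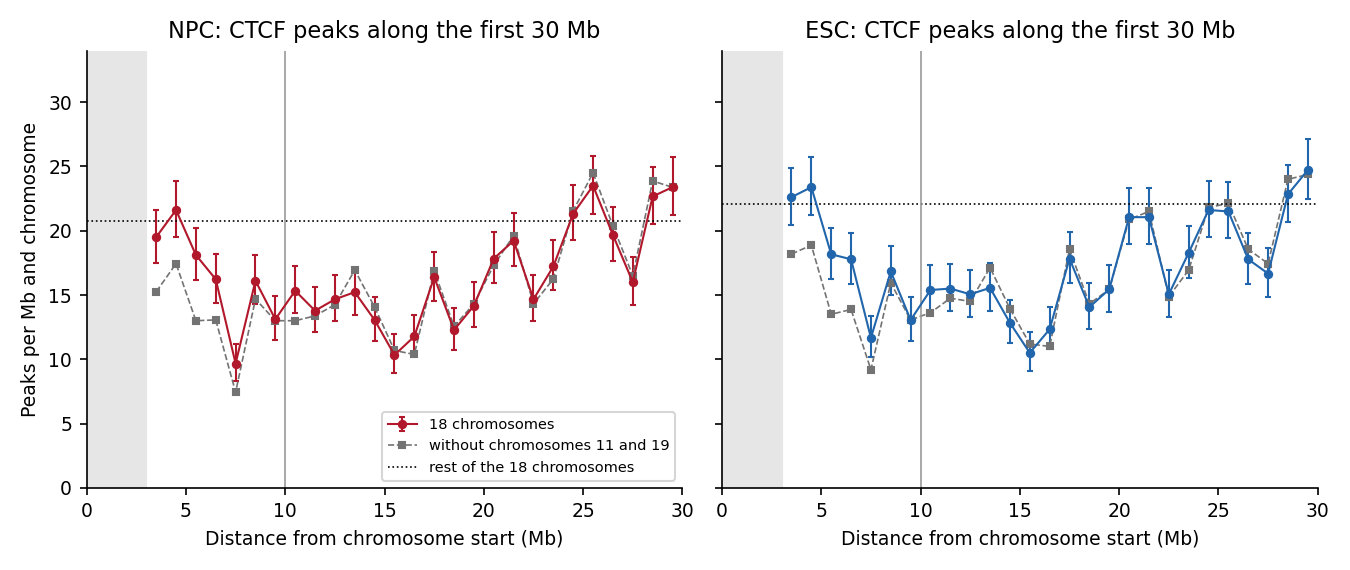
Peaks per Mb and chromosome in steps of 1 Mb from 3 to 30 Mb, NPC left and ESC right, over 18 chromosomes with exact Poisson 95% intervals (circles) and without chromosomes 11 and 19 (grey squares). Shading marks the unsequenced 3 Mb, the vertical line the 10 Mb limit and the dotted line the rest of the 18 chromosomes, and both lists fall to their lowest value before the limit at 7 to 8 Mb.

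The limit itself cut through no visible step. From 9 to 10 Mb there were 236 peaks in NPC and 235 in ESC, and from 10 to 11 Mb there were 276 in NPC and 277 in ESC. The last peak inside the limit on each chromosome lay a median of 46.8 kb from it in NPC and 49.9 kb in ESC, with median score percentiles of 42.1 and 49.7 within their lists. It was shared, meaning that it overlapped the other list by 1 bp or more, on 14 chromosomes in NPC and 17 in ESC, where 78.6% of the whole NPC list and 74.0% of the whole ESC list are shared. The next peak outside lay a median of 42.6 kb away in NPC and 71.0 kb in ESC, with median percentiles of 39.0 and 52.7, and was shared on 10 and 12 chromosomes.

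Peaks crowded into a few single Mb and were missing from others. Of the 126 windows of 1 Mb at the centromere end, 5 had no peak in NPC and 4 none in ESC, the median window held 13 peaks in NPC and 14 in ESC, and the fullest held 69 in each list. The fullest windows lay on chromosome 19 from 5 to 6 Mb (69 NPC and 69 ESC peaks), on chromosome 19 from 4 to 5 Mb (63 NPC and 65 ESC peaks) and on chromosome 19 from 6 to 7 Mb (56 NPC and 61 ESC peaks), with chromosome 11 from 3 to 4 Mb level with the last of these in NPC at 56 peaks, against 60 in ESC. Chromosome 7 held the longest stretch without peaks that begins in the first 10 Mb. In NPC the last peak before it, at 7251998 to 7252597, scored 3100 (percentile 99.7), and the next lay at 10940058 to 10940440, 3.69 Mb further on. In ESC the stretch had the same length to 3 digits, between peaks at 7251882 to 7252706 (score 1523, percentile 90.2) and 10939926 to 10940549. Both lists thus stop and resume at the same sites there.

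Next to the unsequenced opening, as in the whole lists, most sites were called in both cell types. The first peak of a chromosome began between 5.60 and 403 kb beyond the 3 Mb mark in NPC (median 102 kb) and between 5.04 and 438 kb in ESC (median 102 kb), nearest on chromosome 18 in both lists. It was shared with the other list on 16 of 18 chromosomes in NPC and on 14 in ESC. On chromosome 10 a strong site lay at this edge, at 3012730 to 3013617 in NPC (score 2128, percentile 97.7) and 3012627 to 3013462 in ESC (score 2699, percentile 99.2). On chromosome 6 the first peak, 134 kb beyond the mark, scored 1766 in NPC (percentile 95.3) and 3100 in ESC (percentile 99.8). Over all 18 chromosomes the first peaks had a median percentile of 45.5 in NPC and 31.0 in ESC. In the first 100 kb after the mark 18 of 19 peaks were shared in NPC (94.7%, 74.0 to 99.9) and 17 of 19 in ESC (89.5%, 66.9 to 98.7), and these intervals are too wide to set them apart from the 78.6% and 74.0% of the whole lists. In the first 500 kb the shared peaks numbered 148 of 172 in NPC (86.0%, 80.0 to 90.9) and 145 of 203 in ESC (71.4%, 64.7 to 77.5). There the NPC interval lay above the 78.6% of the whole NPC list, while the ESC interval held the 74.0% of the whole ESC list.

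Chromosome 11 held 7 of these 19 NPC peaks and 6 of the 19 ESC peaks. The widest peaks of the whole centromere end lay there: 2522 bp in NPC, from 3046029 to 3048550, and 3293 bp in ESC, from 3045663 to 3048955. This broad site ranked differently in the lists, with a score of 342 in NPC (percentile 46.2) and 1334 in ESC (percentile 85.5). A neighbouring NPC peak at 3092162 to 3093531, 1370 bp wide with a score of 626, had no ESC overlap, but an ESC peak ended 45 bp from it.

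Peaks at the centromere end ranked slightly lower than those of the rest, more so in ESC. Because the score given by the authors is undefined in the files, it was used only as a percentile within each list. The median percentile was 49.3 (47.3 to 51.1) at the centromere end and 50.4 (49.98 to 50.9) in the rest in NPC, so that these intervals overlapped. In ESC it was 47.1 (45.3 to 49.4) at the centromere end and 50.8 (50.3 to 51.2) in the rest, a difference of -3.67 percentile points. The lower rank was not particular to the centromere end. From 10 to 20 Mb the median percentile was 48.6 (47.1 to 50.4) in NPC and 48.0 (46.5 to 49.6) in ESC, also below the rest. The centromere end ranked lower on 11 of 18 chromosomes in NPC and on 14 in ESC. It ranked highest against its chromosome on chromosome 6, with a difference of 8.004 points in NPC and 8.10 in ESC. It ranked lowest on chromosome 8 in NPC, with a difference of -7.19 points, and on chromosome 5 in ESC, with -11.3 points. The strongest sites were about as frequent as elsewhere: the highest of 10 equal score bins of each list supplied 8.94% of the peaks at the centromere end and 9.75% of the rest in NPC, and 10.2% and 10.3% in ESC. Among the upper 50% of the ESC list the median percentile was 0.57 points higher at the centromere end than in the rest.

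Several of the best-ranked sites stood high in both lists. By score value, the pair with the best ranks lay on chromosome 4, at 3894521 to 3895183 in NPC (score 3208, rank 8) and 3894526 to 3895340 in ESC (score 3152, rank 29). Exactly 3100 was the score of 208 NPC and 173 ESC peaks of the whole lists, and the score is undefined. The order of peaks from 3100 upward was therefore not read as an order of strength. Further pairs stood at exactly 3100, a value many peaks share, in both lists: on chromosome 1 (NPC 7386869 to 7387757), chromosome 11 (NPC 5014700 to 5015400), chromosome 17 (NPC 5429214 to 5429948) and chromosome 19 (NPC 5786288 to 5787556). The highest score value of the entire NPC list, 3233, belonged to a peak on chromosome 19 at 5529127 to 5529839. That value does not make it the strongest site, for the same reason. Its ESC partner scored 2324 (percentile 98.4). Close by, a peak at 5487660 to 5488815 scored 3162 in NPC and its partner 2732 in ESC. Among the ESC peaks at 3100 were sites on chromosome 13 (9845854 to 9846645, NPC partner 2174) and chromosome 14 (8829516 to 8830579, NPC partner 3021). At the centromere end 9 NPC peaks and 8 ESC peaks scored exactly 3100, the last NPC peak before the long stretch on chromosome 7 and the first ESC peak of chromosome 6 among them. Which of the tied peaks are named here follows the sorting of chromosome names as text, in which 11 comes before 2, and nothing measured. An exception to this likeness was on chromosome 11, where a single NPC peak of 1255 bp at 3501922 to 3503176 scored 3100, while ESC had 2 separate peaks under it, at 3501827 to 3502188 (score 108, percentile 2.74) and 3502578 to 3503184 (score 542, percentile 51.4).

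Median widths at the centromere end were slightly smaller than in the rest. Peaks there had a median width of 429 bp (421 to 437) in NPC, against 434 bp (433 to 436) in the rest, and 560 bp (553 to 572) in ESC, against 577 bp (575 to 579) in the rest. The difference was -5 bp (-13 to 3) in NPC, an interval that includes 0, and -17 bp (-24 to -5) in ESC. The median was smaller on 13 of 18 chromosomes in NPC and on 15 in ESC. From 10 to 20 Mb the median width was 423 bp (416 to 429) in NPC and 565 bp (556 to 572) in ESC, also below the rest. Higher-scoring peaks are wider in both lists, and the ESC centromere end ranked lower. Whether the rank accounts for the width was not tested. Compared within score bins, the difference in median width averaged -2.50 bp in NPC and -3.42 bp in ESC, against -5 and -17 bp without that adjustment. Very wide peaks, over 1000 bp, were rare in both parts. In NPC 9 peaks (0.437%) at the centromere end exceeded this width, against 138 (0.304%) in the rest, and in ESC 35 (1.57%) did, against 801 (1.66%) in the rest.

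Sites at the centromere end were called in both cell types as often as elsewhere, within counting error. In NPC 427 peaks (20.7%, 19.01 to 22.6) had no ESC overlap, against 20.97% (20.6 to 21.3) in the rest and 21.4% in the whole NPC list. In ESC 605 peaks (27.2%, 25.4 to 29.1) had no NPC overlap, against 26.2% (25.8 to 26.6) in the rest and 26.0% in the whole ESC list. The shared share thus differed from that of the rest by 0.22 percentage points in NPC (-1.63 to 1.96) and by -0.99 points in ESC (-2.92 to 0.86). Both intervals include 0. In each list the shared share was higher at the centromere end on 9 chromosomes and lower on 9.

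Sharing rose steeply with score in the same way at the centromere end. In the lowest of the 10 score bins of the NPC list 46.3% (39.3 to 53.4) of the peaks at the centromere end were shared, against 46.0% in the rest, and in the highest bin all 184 were, against 99.7% in the rest. In the lowest bin of the ESC list 34.7% (28.7 to 41.1) were shared, against 32.4% in the rest, and in the highest bin all 227 were, against 99.4%. In all 10 bins of both lists the interval at the centromere end held the value of the rest. With the shared share of the rest in each bin weighted by the numbers of peaks at the centromere end, 78.7% of NPC and 72.2% of ESC peaks would be shared. The observed shares were 79.3% (77.4 to 81.0) in NPC and 72.8% (70.9 to 74.6) in ESC. They differed from the values expected from the score bins by 0.55 points in NPC (-1.27 to 2.28) and 0.59 points in ESC (-1.31 to 2.43).

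**Figure D3:**
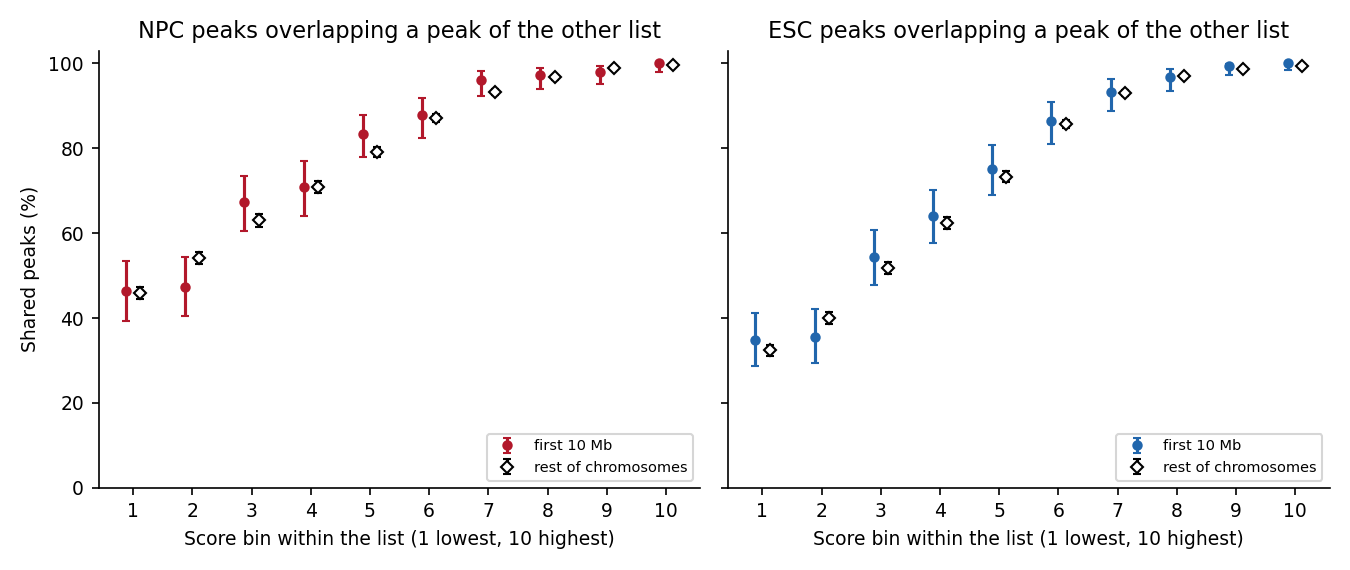
Share of peaks overlapping a peak of the other list, by score bin within the list (1 lowest, 10 highest), in the first 10 Mb (filled) and the rest (open) of the 18 chromosomes, NPC left and ESC right, with exact Clopper-Pearson 95% intervals. Both parts climb together, to 100% at the centromere end in the highest bin of each list.

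Single chromosomes departed from the score-based value in places. In NPC the interval left it out on 3 chromosomes. On chromosome 2 the observed share was lower, at 67.9% (58.2 to 76.7) against 77.0% from scores. On chromosome 7 it was higher, at 89.2% (82.6 to 93.99) against 80.0%, and on chromosome 14 too, at 91.1% (78.8 to 97.5) against 78.3%. In ESC the interval left it out on 2 chromosomes, both with more sharing: 83.7% (70.3 to 92.7) against 69.5% on chromosome 14, and 82.8% (75.6 to 88.5) against 73.1% on chromosome 17. Chromosome 14 was the only one to depart in both lists, and it is the one with the fewest peaks, 4 of 45 in NPC and 8 of 49 in ESC being unshared. The same overlaps, 41 shared peaks in each list, enter both shares, so its departures are not independent of each other. The lowest ESC share was on chromosome 1, with 58.97% (47.3 to 69.99), an interval that held the 67.0% from scores. These are 36 intervals read side by side, without correction for their number.

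**Figure D4:**
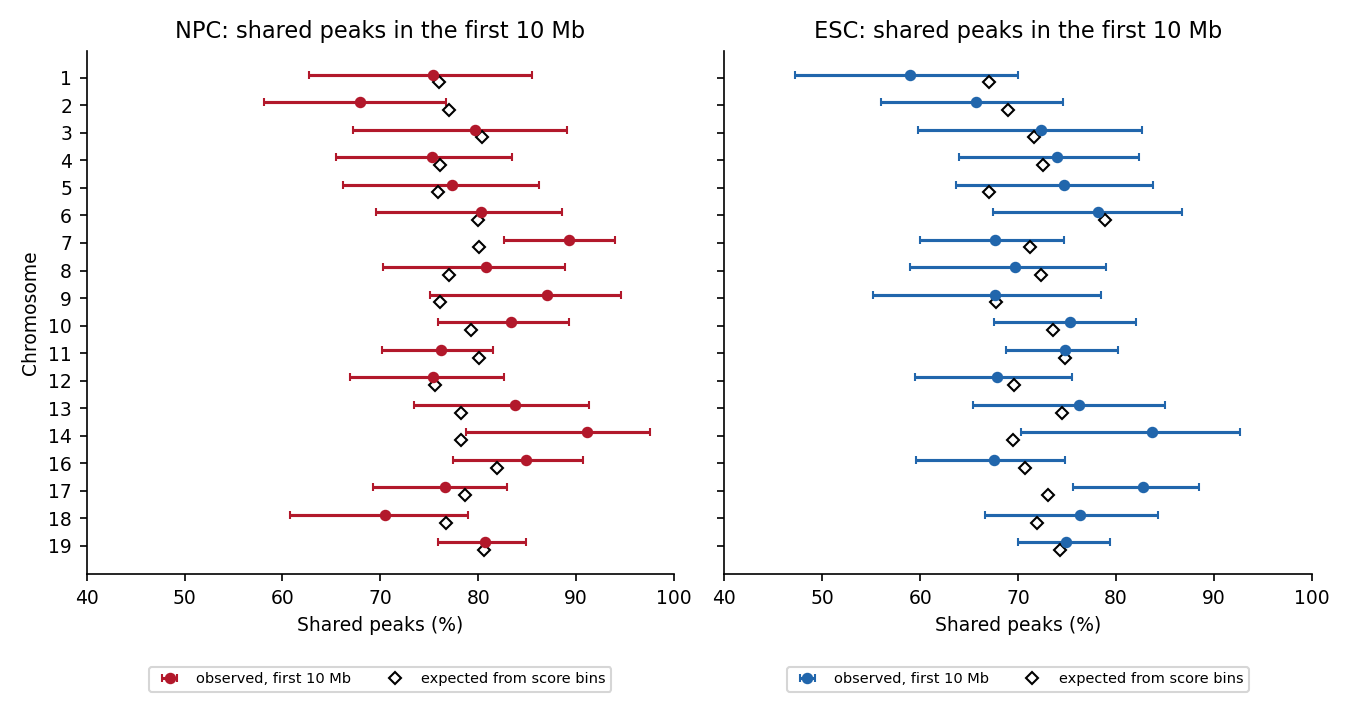
Shared peaks in the first 10 Mb of each chromosome, observed (filled, with exact Clopper-Pearson 95% intervals) and expected from the score bins (open diamonds), NPC left and ESC right. The horizontal axis starts at 40%, and the open diamond falls outside the interval on chromosomes 2, 7 and 14 in NPC and on chromosomes 14 and 17 in ESC.

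Chromosome 7 was uneven between the cell types. It had 130 NPC and 167 ESC peaks in its first 10 Mb, or 77.8 NPC peaks for every 100 ESC peaks, the lowest of the 18 chromosomes, against 94.9 along its rest and 92.6 over all 18 centromere ends. Of these peaks 14 in NPC (10.8%, 6.01 to 17.4) and 54 in ESC (32.3%, 25.3 to 39.997) were unshared. The whole lists have 21.4% of NPC and 26.0% of ESC peaks unshared. The score-based values for this end were 19.97% in NPC and 28.7% in ESC. The NPC interval lay below both NPC values, and the ESC interval held both ESC values. An excess of unshared ESC peaks was thus not shown for this end as a whole. The imbalance in number was largest from 3 to 4 Mb. There 1 of 30 NPC peaks and 20 of 49 ESC peaks (40.8%, 27.0 to 55.8) had no partner. This was the highest count of ESC-only peaks in any of the 126 windows. At the 110 sites where each peak had a single partner, the median percentile was 58.3 within NPC and 69.7 within ESC, and the NPC percentile was the higher one at 38 sites. The median of the NPC minus ESC percentile there was -6.96 (-13.0 to -1.68), against -0.02 (-0.73 to 0.73) at the sites of the rest of chromosome 7 and -1.68 (-3.001 to -0.32) at the 1597 sites of all 18 centromere ends. Chromosome 9 shifted as far, by -7.50 (-11.2 to -0.38) at 45 sites, and its end had 79.4 NPC peaks for every 100 ESC peaks, from only 54 NPC and 68 ESC peaks, against 96.7 in its rest. In number, the ends of chromosomes 1 and 16 were also close to chromosome 7. They had 78.2 and 80.3 NPC peaks per 100 ESC peaks, against 95.7 and 92.4 in their rest. Chromosome 7 was singled out after its values were seen.

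Chromosomes 17 and 18 leaned the other way in number. The centromere end of chromosome 17 held 158 NPC and 145 ESC peaks (109 per 100), against 88.5 per 100 in its rest, and 37 NPC peaks (23.4%, 17.1 to 30.8) and 25 ESC peaks (17.2%, 11.5 to 24.4) had no partner. That of chromosome 18 held 105 NPC and 97 ESC peaks (108 per 100), against 95.9 per 100 in its rest, with 31 NPC peaks (29.5%, 21.02 to 39.2) and 23 ESC peaks (23.7%, 15.7 to 33.4) unshared. In the whole lists 21.4% of NPC and 26.0% of ESC peaks are unshared, values that these intervals hold except for ESC on chromosome 17. On chromosome 18 the intervals also held the score-based values of 23.3% in NPC and 28.1% in ESC. The longest run of neighbouring NPC peaks without an ESC partner, 8 peaks with scores from 108 to 777, lay on chromosome 18 between 5276221 and 5945266. ESC had 2 peaks of its own within that span. In ESC the longest such run had 6 peaks with scores from 162 to 775, on chromosome 8 between 7877008 and 8494809, where NPC had no peak at all. Unshared NPC peaks were most numerous on chromosome 11 between 5 and 6 Mb, at 18 of 49 in NPC (36.7%, 23.4 to 51.7) and 12 of 42 in ESC.

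Strong cell-type-only sites were few. Unshared peaks at the centromere end had a median score of 159 (155 to 172) in NPC and 186 (175 to 196) in ESC, and 43 NPC peaks (10.1%, 7.38 to 13.3) and 49 ESC peaks (8.10%, 6.05 to 10.6) of them lay above the median of their list. In the rest 11.6% of unshared NPC peaks and 9.86% of unshared ESC peaks did. The strongest NPC-only peak, over 1 kb from any ESC peak, lay on chromosome 11 at 5926328 to 5926887 and scored 1274 (percentile 87.5), with an ESC peak 6313 bp away. Next came chromosome 10 at 7020597 to 7021178 (score 1145), chromosome 18 at 4745987 to 4746551 (score 1129, no ESC peak within 53680 bp), chromosome 16 at 4655507 to 4656421 (score 1121) and chromosome 2 at 4149585 to 4150027 (score 850). The strongest ESC-only peak also lay on chromosome 11, at 3929072 to 3929917, and scored 1162 (percentile 80.0) with no NPC peak within 22228 bp. It was followed by chromosome 2 at 5884613 to 5885316 (score 1034), chromosome 10 at 8498498 to 8499235 (score 1012), chromosome 6 at 4602600 to 4603239 (score 995, no NPC peak within 43462 bp) and chromosome 19 at 8835209 to 8835804 (score 960). None of these reached the highest score bin of its list.

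At sites called in both cell types, the positions and ranks matched about as closely as elsewhere. Where each peak overlapped a single peak of the other list, the distance between their centres had a median of 31.5 bp over 1597 sites at the centromere end, and of 32 bp over 35160 sites of the rest. Their score ranks in NPC and ESC correlated with Spearman's rho of 0.65 at the centromere end and 0.62 in the rest, across peaks that share libraries and are not replicates. The percentiles differed by over 20 points at 34.7% of the sites at the centromere end and at 37.7% in the rest. ESC peaks that spanned 2 or more NPC peaks made up 0.720% (0.412 to 1.17) at the centromere end and 0.759% in the rest, and NPC peaks that spanned 2 or more ESC peaks made up 0.146% (3 peaks, 0.0301 to 0.425) at the centromere end and 0.0682% (31 peaks) in the rest.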

How the data were processed

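CTCF ChIP-seq peaks were analysed in 1 NPC and 1 ESC library. The authors deposited 1 list per library, with a start, an end and a score for each peak. Per the file headers the peaks come from MACS, and per the submitters' processing notes the build is mm9. The score is the authors' own value. How it is defined, which control, threshold, version and aligner were used, and why both track names end in CONTROL, is not given in the sources used here. Depth is unknown.

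From the lists, peak centres, widths, within-list percentiles, 10 equal score bins and overlaps (at least 1 bp) were computed in Python (3.11.15) with scipy (1.17.1), pandas (2.3.3) and numpy (2.4.6), and plotted with matplotlib (3.10.9). The expected shared share weights the share of the rest in each bin by the peaks at the centromere end. Intervals are exact Poisson for counts, exact binomial for ratios of densities, exact Clopper-Pearson for shares, Newcombe for differences of shares and order statistics for medians. In the intervals for differences of medians and for differences from the expected shared share, the value of the rest was taken as fixed. The overlap and weighting steps were tested on simulated data. Starts are 1-based.

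Named were, per list, the 5 peaks with the highest score, the 5 best unshared peaks over 1 kb from the other list and the 3 fullest windows, with the 5 best shared pairs and the extreme chromosomes. Widest peaks, runs, stretches without peaks, first peaks with high scores and chromosomes 7, 17 and 18 were added after their values were seen. The rule for the peaks and the measures were chosen with earlier results of these data known. Alternatives covered the limit (5 or 20 Mb), the overlap, the upper 50% by score, 20 score bins, the length counted, and the chromosomes used. Chromosomes 15, X and Y stood outside the comparisons.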

Additional observations from a re-analysis of the deposited data

Results flagged for a closer look

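The shared share moved in opposite directions in the cell types: the centromere end differed from the rest by 0.22 percentage points in NPC and by -0.99 points in ESC. This is a difference between 1 library and 1 library and was not tested. Both values lie within counting error of 0, and each list showed either direction on 9 of the 18 chromosomes. The opposition also depended on the settings. With at least 50% reciprocal overlap both lists were higher at the centromere end, by 1.52 points in NPC and 0.21 in ESC. With a limit of 20 Mb both were lower, at -0.07 points in NPC and -0.25 in ESC.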

How the results depend on the processing

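Alternatives other than leaving out a chromosome gave 74 values inside the interval of the reported value. Another 12 moved outside it and 4 changed direction. Direction was judged only where the reported interval lay wholly above or below no difference. Some of the 74 changed sign, all of them in sharing, where the reported intervals span both signs. The difference from the rest was -0.07 points in NPC with 20 Mb, and 0.21 points in ESC with at least 50% reciprocal overlap. The ratio of densities changed direction with the limit alone. With 5 Mb it was 1.001 (0.930 to 1.08) in NPC and 1.06 (0.985 to 1.13) in ESC, the other direction, but both intervals hold 1. With 20 Mb it was 0.691 and 0.694. It was 0.550 in NPC and 0.560 in ESC with the unsequenced 3 Mb counted, 0.666 and 0.687 without chromosomes 11 and 19, and 0.745 in ESC with the upper 50% by score. Leaving out 1 chromosome gave 0.704 to 0.821 in NPC and 0.718 to 0.832 in ESC, lowest without chromosome 19.

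With the 5 Mb limit the NPC shared share was 2.62 points above the rest (-0.36 to 5.27). It was 2.54 points above the score-based value (-0.44 to 5.27), and both intervals span both signs. In the upper 50% of ESC peaks the percentile difference was 0.57 and the width difference 1 bp, the other direction. The ESC width difference was -24.9 bp with chromosomes weighted equally, -25 bp without chromosomes 11 and 19, and -3.42 bp within score bins. Leaving out 1 chromosome gave shared differences of -0.38 to 0.80 points in NPC and -1.78 to -0.41 in ESC, differences from the score-based value of -0.06 to 1.16 in NPC and -0.16 to 1.01 in ESC, percentile differences of -2.10 to -0.83 in NPC and -4.34 to -2.65 in ESC, and width differences of -9 to -3 bp in NPC and -21.5 to -15 bp in ESC. Equal weights, omission of chromosomes 11 and 19, omission of the first 500 kb after the 3 Mb mark and the comparison within bins were added after the data were seen. The cause of these shifts was not tested. Depth is unknown, so a missing partner can be a site below the calling limit. No paired analysis was possible because each cell type has 1 library.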

Other observations

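The first 10 Mb of chromosome 15, set aside by the rule, held 137 NPC and 111 ESC peaks, of which 43 in NPC (31.4%, 23.7 to 39.9) and 17 in ESC (15.3%, 9.18 to 23.4) were unshared. These shares were near the 30.3% (NPC) and 15.97% (ESC) of the rest of that chromosome. Chromosome X was denser at its centromere end in both lists, with 10.7 peaks per Mb in NPC against 7.36 in its rest, and 13.0 in ESC against 8.96. Its unshared share at that end was 14.7% (7.56 to 24.7) in NPC and 29.7% (20.5 to 40.2) in ESC, near the 17.6% (NPC) and 32.5% (ESC) of its rest. Its median percentile at that end was 36.3 in NPC, against 38.0 in its rest, and 37.5 in ESC, against 35.8 in its rest.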
